A study of Mus musculus with 20 samples.

Results

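The circadian clock of the mouse kidney was examined through 10 of its genes, Per1, Per2, Per3, Cry1, Cry2, Arntl, Clock, Nr1d1, Nr1d2 and Dbp. They were chosen by name as core components of the clock and its nearest output, with earlier results of these data known. All 10 were found by symbol among the 24421 gene symbols of the count table, and all 10 passed the filter on low counts in every comparison. The libraries were RNA-seq of kidney from 2 genotypes, collected 5 or 10 days after induction, with 5 libraries in each of 4 groups, and the question was whether the state of the clock differed between the groups. Fh1 encodes fumarate hydratase, a mitochondrial enzyme of the tricarboxylic acid cycle. Fh1-/- kidneys came from mice with loxP sites on both Fh1 alleles, and Fh1+/+ kidneys from littermates with intact alleles. Both genotypes were homozygous for R26 Cre-ERT2, a tamoxifen-inducible recombinase expressed in all tissues from the Rosa26 promoter, so excision was not limited to the kidney. Mice of both sexes and of mixed C57BL/6 and 129/SvJ background received 3 intraperitoneal injections of 2 mg tamoxifen in corn oil at an age of 12 weeks. Fh1+/+ mice thus carried the same recombinase and received the same tamoxifen, and each time point had its own controls. The sources used here give neither the hour of collection nor the light cycle, and no library can be placed in the daily cycle by its label. The paper states that controls and their experimental littermates were induced and killed at the same time. It makes no such statement for day 5 against day 10, and the labels do not say which libraries were littermates. The labels number the libraries of a group but do not name animals, and p-values therefore measure the spread between these libraries.

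The clock is a feedback loop of transcription that runs in almost every cell and is set in peripheral organs such as the kidney by feeding, hormones and body temperature. CLOCK and its partner BMAL1, the product of Arntl, activate genes through E-boxes, among them the Per, Cry and Nr1d genes and Dbp. PER and CRY proteins accumulate and repress CLOCK and BMAL1, and the nuclear receptors encoded by Nr1d1 and Nr1d2 (REV-ERB alpha and beta) repress Arntl through ROR response elements. In a cycling tissue Arntl and Dbp transcripts peak at opposite times of day. In the kidney the clock is known for daily rhythms of filtration and of sodium and water handling.

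The DNA motifs named here are shown in the promoters of the genes whose levels are compared below. Promoter windows of 300 bases, 250 before and 50 after each start, were given by RefSeq on GRCm38.p6 for 9 of the 10 genes, in 13 windows. An E-box (CACGTG) was present in 7.15% of 32851 such windows on either strand, and in those of Per1 and Cry1. A second E-box form (CACGTT) was in 4.68% of all windows and in those of Cry1, Cry2 and Nr1d1. A D-box, the site of DBP (TTATGTAA or TTACGTAA), was in 1.06% of all windows and in that of Per3, and a ROR element core (TAGGTCA) in 2.61% and in 1 window of Arntl. A CRE (TGACGTCA) was in 1.79% of all windows and in 0 of the 13. A match describes letters and not a bound site, and letters absent from a window say nothing about a factor. Motifs are in capitals, read 5′ to 3′ on the strand of the gene, where the second E-box form reads AACGTG. Cry1 (chr10:85185055-85185304, minus strand) held an E-box that starts at position −60 from the start site and a second E-box form at −79. Per3 (chr4:151044666-151044915, minus strand) held D-boxes that start at positions −205 and −158. Of the other 4 genes 30 bases around the motif are shown, at chr11:69098771-69098800 (plus strand) for Per1, chr2:92434218-92434247 (minus strand) for Cry2, chr11:98775388-98775417 (minus strand) for Nr1d1 and chr7:113207530-113207559 (plus strand, after the start site) for Arntl.
Cry1 promoter: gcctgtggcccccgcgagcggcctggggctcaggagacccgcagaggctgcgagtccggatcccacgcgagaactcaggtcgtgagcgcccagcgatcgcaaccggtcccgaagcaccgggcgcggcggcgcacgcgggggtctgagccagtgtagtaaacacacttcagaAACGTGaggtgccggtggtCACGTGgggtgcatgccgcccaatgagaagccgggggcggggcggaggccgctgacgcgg
Per3 promoter: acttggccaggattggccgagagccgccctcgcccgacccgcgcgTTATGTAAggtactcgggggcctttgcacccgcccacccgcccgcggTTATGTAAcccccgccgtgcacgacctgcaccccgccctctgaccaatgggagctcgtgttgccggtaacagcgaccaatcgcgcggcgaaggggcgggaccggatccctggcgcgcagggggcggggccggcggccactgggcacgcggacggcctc
Per1 E-box: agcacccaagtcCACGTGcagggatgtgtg
Cry2 second E-box form: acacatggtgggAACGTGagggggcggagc
Nr1d1 second E-box form: cgcacagatctcAACGTGccggctgctgga
Arntl ROR element core: aaggcagaaagTAGGTCAgggacggaggtg

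Total counts ranged from 16654829 to 25001294 per library, with a median of 18547503. Levels are given as CPM, counts scaled to a common library size by the TMM method. On the first principal component of all genes, which held 42.8% of the variance, Fh1-/- day 10 replicates 1 and 3 lay at −125 and −128 and the other 18 libraries between −30.3 and 31.3. Y-linked transcripts (4 genes) summed to 1.03 CPM or less in Fh1-/- day 10 replicates 1, 3 and 5. The same held for Fh1-/- day 5 replicates 2 and 5, Fh1+/+ day 10 replicates 2 and 3 and Fh1+/+ day 5 replicate 1. They summed to 97.2 CPM or more in every other library, so sex was not balanced between the groups. Its part in the differences was not tested beyond fits with a covariate for these transcripts. Fh1 itself was at 347 ± 60.7 CPM in Fh1-/- and 239 ± 14.7 CPM in Fh1+/+ kidneys at day 10, and at 222 ± 16.6 and 249 ± 22.2 CPM at day 5 (SD, n = 5 each). Excision removes exons 3 and 4, and a count summed over the remaining exons as well does not check the genotype labels. Thick ascending limb genes of the kidney (Umod, Slc12a1 and Kcnj1) summed to 5756 CPM or more in every library. The sum was mostly Umod, with group means between 5618.5 and 9233 CPM. In Fh1-/- day 10 libraries Slc12a1 went down to 68.4 CPM and Kcnj1 to 61.8 CPM, against 848 and 271 CPM or more in the other groups. Of 3 adrenal cortex markers, Cyp11b1 had 0 counts in 17 and Cyp11a1 in 8 of 20 libraries, while Star had between 46 and 107 counts in every library.

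At day 10 the Fh1-/- libraries lay outside the range of all others for Dbp, Arntl and Clock. Dbp was lower in all 5 Fh1-/- libraries than in any of the other 15 libraries, and Arntl and Clock were higher in all 5 than in any other. The share of all genes that lay outside the range of the other 15 libraries in this way was not computed, so this separation cannot be called particular to clock genes. Means at day 10 were also higher without Fh1 for Per1, Per2, Cry1 and Cry2 and lower for Per3, Nr1d1 and Nr1d2. By the thresholds used (adjusted p under 0.01 and a log2 fold change beyond 0.58 either way) 0 of the 10 genes passed edgeR's quasi-likelihood test at day 10. Among all 14360 genes tested 0.0557% passed, that is 8 genes, a number that ranged from 0 to 235 when single libraries were left out (235 without Fh1-/- day 10 replicate 2). With DESeq2 2 of the 10 passed, Dbp and Arntl, against 5.35% of all genes. At an unadjusted p under 0.05 from edgeR there were 7 of 10, against 27% of all genes. Of these, 4 were higher in Fh1-/- kidneys (Arntl, Clock, Cry1 and Cry2; 15.1% of all genes) and 3 lower (Nr1d1, Nr1d2 and Dbp; 11.9%). The 2 groups of libraries did not overlap for 4 of 10, against 7.64% of all genes, with Arntl, Clock and Cry2 above (3.96%) and Dbp below (3.68%). In whole tissue, fewer cells of a type and less RNA per cell cannot be told apart.

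**Figure D1:**
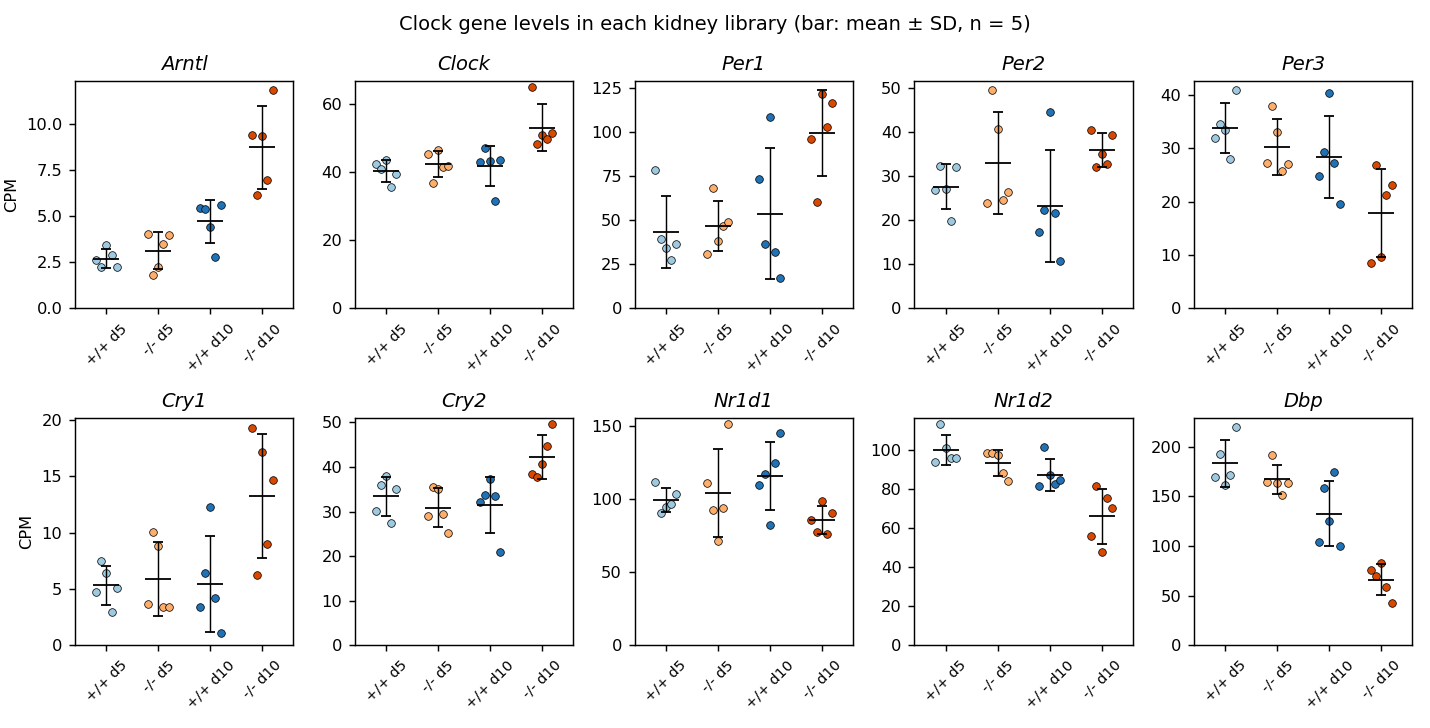
CPM (vertical axes, from 0) of the 10 clock genes in each library, by genotype (+/+ or -/-) and day (d5 or d10); each point is 1 library in the order of the replicates, and bars are the mean ± SD of 5. Dbp of the Fh1-/- day 10 libraries (42.6 to 82.8 CPM) lies below, and Arntl (6.16 to 11.8 CPM) above, all other libraries.

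Between day 5 and day 10 in Fh1-/- kidneys, Dbp fell and was the only 1 of the 10 genes to pass with edgeR, where 0.576% of all 14235 genes passed, that is 82 genes, with a range from 0 to 774 when single libraries were left out (774 without Fh1-/- day 10 replicate 2). DESeq2 called 3, with Per1 and Arntl higher and Dbp lower at day 10, against 8.6% of all genes. At an unadjusted p under 0.05 from edgeR there were 8 of 10 genes, against 32.2% of all genes, 5 of them higher at day 10 (17.9% of all genes) and 3 lower (14.4%). The libraries of the 2 days did not overlap for 5 genes, against 12.3% of all genes, with Arntl, Clock and Cry2 higher (6.22%) and Dbp and Nr1d2 lower at day 10 (6.03%). This comparison shares the 5 Fh1-/- day 10 libraries with the genotype comparison at day 10, so both rest on the same 5 values per gene.

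At day 5 no difference between the genotypes was detected for any of the 10 genes. With edgeR 0 of 10 passed, where 0.0347% of all 14404 genes did, and with DESeq2 0 of 10, where 0.226% did. At an unadjusted p under 0.05 there were again 0 of 10, against 4.78% of all genes, and the libraries of the genotypes overlapped for every one of the 10 (0.903% of all genes did not overlap). The largest log2 fold change in size was that of Per2, 0.24 (95% interval −0.27 to 0.76), which ran from 0.042 to 0.35 when single libraries were left out, while that of Per1 reached 0.42. For Dbp the interval ran from −0.37 to 0.08 and for Clock from −0.13 to 0.24. For Cry1 it ran from −0.74 to 0.98 and for Per1 from −0.58 to 0.76, so larger differences of these 2 genes were compatible with the data.

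Between day 5 and day 10 in Fh1+/+ kidneys 0 of 10 genes passed with edgeR or DESeq2, and 0% of all 14501 genes passed with edgeR. At an unadjusted p under 0.05 there were 3 of 10, against 3.97% of all genes. The mean of Arntl was higher at day 10 (log2 fold change 0.80, SE 0.22; 1.99% of all genes in this direction), and those of Dbp (−0.46, SE 0.16) and Nr1d2 (−0.19, SE 0.084) were lower (1.98%). The adjusted p was 0.948 for each of the 3 from edgeR, and libraries of the 2 days overlapped for each of the 10 genes (0.559% of all genes did not overlap). For Arntl and Dbp the mean levels of the control mice at day 10 lay between those of the day 5 groups and those of Fh1-/- day 10.

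**Figure D2:**
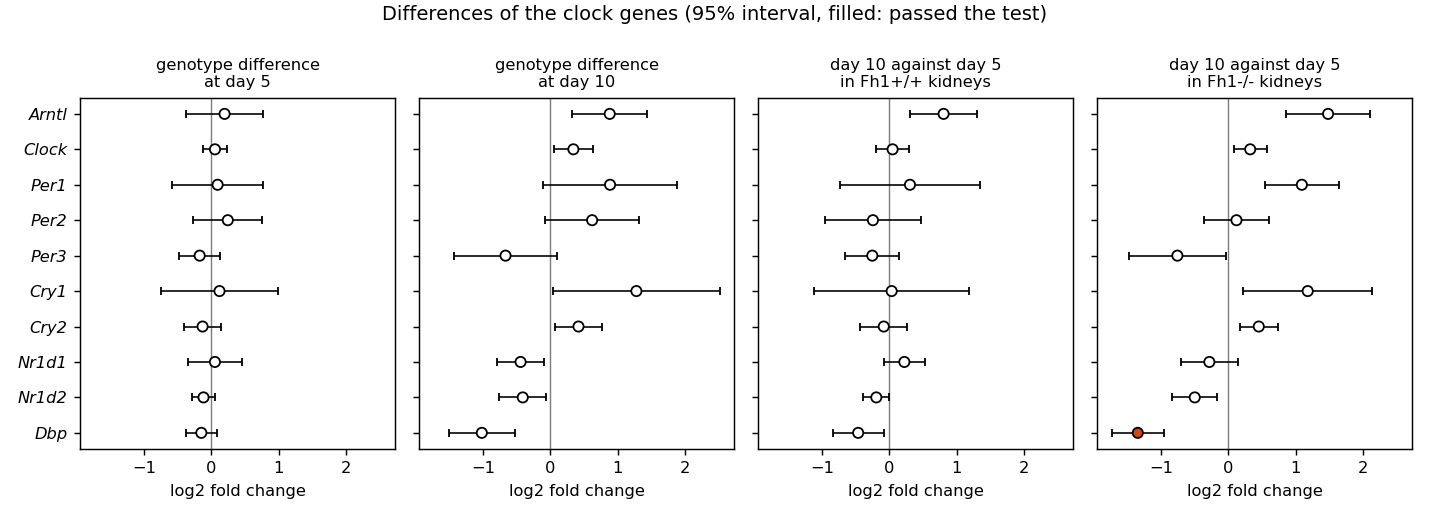
Log2 fold changes (horizontal axes) of the 10 genes with 95% intervals from edgeR in the 4 comparisons; filled points passed the test. The filled point is Dbp between the days in Fh1-/- kidneys (−1.34), and at day 5 every interval between the genotypes includes 0.

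Of the activators, Arntl (chr7:113207465-113314126 of GRCm38, plus strand) was the least abundant of the 10 genes per length of exon, at 0.359 ± 0.0671 CPM per kilobase in Fh1+/+ kidneys at day 5 (SD, n = 5). In Fh1-/- kidneys at day 10, replicates 1 to 5 had 9.40, 6.16, 9.38, 6.99 and 11.8 CPM. In Fh1+/+ kidneys at day 10 they had 5.43, 5.40, 4.42, 2.81 and 5.61 CPM. The 2 genotypes did not overlap, by a margin of 5.61 against 6.16 CPM. At day 5 the levels were 4.03, 1.84, 2.27, 3.52 and 4.01 CPM in Fh1-/- and 2.65, 2.26, 3.46, 2.91 and 2.25 CPM in Fh1+/+ kidneys, and these ranges overlapped. The log2 fold change between genotypes at day 10 was 0.88 (SE 0.24, adjusted p = 0.0715 with edgeR's test, 0.0083 from DESeq2). Between the days in Fh1-/- kidneys it was 1.48 (SE 0.27, adjusted p = 0.0143 from edgeR, 8.3e-06 from DESeq2). Arntl had between 39 and 265 counts per library.

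Clock, which encodes the partner of BMAL1 (chr5:76209868-76304792, minus strand), had group means between 40.3 and 53.1 CPM. Its levels in Fh1-/- day 10 replicates 1 to 5 were 65.0, 48.2, 50.9, 49.8 and 51.5 CPM, and in Fh1+/+ day 10 they were 43.0, 46.9, 43.3, 31.6 and 43.7 CPM. All 5 Fh1-/- libraries lay above all 5 of Fh1+/+, with a log2 fold change of 0.34 (SE 0.13, adjusted p = 0.127 from edgeR), a size below the threshold of 0.58. At day 5 the means were 42.4 ± 3.73 CPM in Fh1-/- and 40.3 ± 3.11 CPM in Fh1+/+ kidneys (SD, n = 5 each).

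Of the repressors, the Per genes had fold changes of both signs at day 10. Per1 (chr11:69095217-69109960, plus strand), whose transcription also responds to hormonal and cyclic AMP signals, was at 95.6, 60.2, 121, 103 and 116 CPM in Fh1-/- day 10 replicates 1 to 5 and at 73.2, 36.7, 109, 31.8 and 17.2 CPM in Fh1+/+ day 10. The Fh1+/+ libraries spread over 6.30-fold and overlapped those of Fh1-/-, and the log2 fold change was 0.89 (SE 0.43, adjusted p = 0.208 from edgeR). Against the Fh1-/- day 5 libraries, at 30.5, 68.4, 38.1, 46.7 and 49.0 CPM, it was 1.09 (SE 0.24, adjusted p = 0.0233 from edgeR, 5.5e-04 from DESeq2).

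Per2 (chr1:91415982-91459324, minus strand), a further transcriptional repressor of the loop, was at 31.98 to 40.4 CPM in Fh1-/- and 10.8 to 44.4 CPM in Fh1+/+ kidneys at day 10, with a log2 fold change of 0.62 (SE 0.30, adjusted p = 0.211 from edgeR). Per3 (chr4:151003652-151044665, minus strand), the family member with the weakest known role in the loop, had the opposite sign. Its levels were 8.48, 26.8, 9.59, 21.3 and 23.2 CPM in Fh1-/- day 10 replicates 1 to 5, against 24.8, 29.3, 40.3, 27.3 and 19.5 CPM in Fh1+/+ day 10. The lowest 2 libraries of all 20 were Fh1-/- day 10 replicates 1 and 3, the same 2 that stood apart on the first principal component. The log2 fold change of Per3 was −0.66 (SE 0.33, adjusted p = 0.216 from edgeR), and without those 2 libraries it was −0.24 (adjusted p = 0.571).

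Cry1 (chr10:85131700-85185064, minus strand), a cryptochrome and strong repressor of CLOCK and BMAL1, had the largest fold change of the 10 between genotypes at day 10 and also the largest standard error. Its levels were 19.3, 6.27, 17.1, 8.98 and 14.7 CPM in Fh1-/- and 3.36, 6.37, 12.3, 4.19 and 1.07 CPM in Fh1+/+ day 10 replicates 1 to 5. The genotypes overlapped, and the lowest Fh1+/+ library held 19 counts. The log2 fold change was 1.28 (SE 0.54, adjusted p = 0.163 from edgeR). At day 5 the ranges were 3.37 to 10.1 CPM in Fh1-/- and 2.97 to 7.48 CPM in Fh1+/+ kidneys. At day 10 the libraries low in Y-linked transcripts (Fh1-/- replicates 1, 3 and 5, Fh1+/+ replicates 2 and 3) held the highest Cry1 levels of their groups. At day 5 this did not hold throughout. Of the Fh1-/- libraries low in them, replicate 2 held the highest Cry1 level of the group (10.1 CPM) and replicate 5 the lowest (3.37 CPM). Fh1+/+ replicate 1, also low in them, was at 4.74 CPM, neither the highest nor the lowest of its group.

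Cry2 (chr2:92403646-92434043, minus strand), the second cryptochrome, was at 38.4, 37.8, 40.6, 44.7 and 49.6 CPM in Fh1-/- and 32.2, 33.6, 37.4, 33.4 and 20.9 CPM in Fh1+/+ day 10 replicates 1 to 5. The groups did not overlap, by 37.4 against 37.8 CPM, and the log2 fold change was 0.42 (SE 0.15, adjusted p = 0.125 from edgeR). Between the days in Fh1-/- kidneys it was 0.45 (SE 0.12, adjusted p = 0.0413 from edgeR, 0.0092 from DESeq2), below the threshold of 0.58. Cry2 shares 295 exon bases with D930015M05Rik on the opposite strand, which was at 0.599 to 1.34 CPM in all libraries.

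The REV-ERB receptor genes were next to Dbp in abundance per length, at 32.2 ± 2.72 (Nr1d1) and 18.5 ± 1.45 (Nr1d2) CPM per kilobase in Fh1+/+ kidneys at day 5 (SD, n = 5 each). Nr1d1 (chr11:98767932-98775333, minus strand) was at 85.6, 77.1, 98.6, 76.2 and 90.0 CPM in Fh1-/- day 10 replicates 1 to 5. In Fh1+/+ day 10 it was at 109, 117, 81.8, 125 and 145 CPM, and replicate 3 lay within the Fh1-/- range. The log2 fold change was −0.44 (SE 0.15, adjusted p = 0.105 from edgeR). Nr1d1 shares 263 exon bases with Thra on the opposite strand, a thyroid hormone receptor gene whose log2 fold change in the same comparison was −0.40 (adjusted p = 0.179 from edgeR).

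Nr1d2 (chr14:18204054-18239127, minus strand) was at 55.8, 81.6, 47.5, 75.1 and 70.1 CPM in Fh1-/- and at 81.5 to 101 CPM in Fh1+/+ kidneys at day 10. The overlap was of 1 library, replicate 2 of Fh1-/- (81.6 CPM) against a lowest Fh1+/+ level of 81.5 CPM, and the log2 fold change was −0.41 (SE 0.15, adjusted p = 0.124 from edgeR). Against the Fh1-/- day 5 libraries, at 84.0 to 98.4 CPM, all 5 were lower, with a log2 fold change of −0.50 (SE 0.15, adjusted p = 0.0502 from edgeR). Replicates 1 and 3 held the 2 lowest levels, and without both the genotype difference at day 10 was −0.20 (adjusted p = 0.342 from edgeR).

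Dbp (chr7:45705088-45710203, plus strand), a transcription factor that carries the rhythm of CLOCK and BMAL1 to output genes through D-boxes, was the most abundant of the 10 per length in 3 of the 4 groups, at 61.2 ± 7.91 CPM per kilobase in Fh1+/+ kidneys at day 5 (SD, n = 5). In Fh1-/- kidneys at day 10, replicates 1 to 5 had 76.1, 69.6, 82.8, 58.5 and 42.6 CPM. In Fh1+/+ kidneys at day 10 they had 104, 158, 126, 175 and 100.4 CPM. Every Fh1-/- library at day 10 was below every Fh1+/+ library of that day. At day 5 the levels were 165, 192, 164, 152 and 163 CPM in Fh1-/- and 169.9, 193, 162, 172 and 220.3 CPM in Fh1+/+ kidneys, and these ranges overlapped.

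Between day 5 and day 10 in Fh1-/- kidneys Dbp fell by 1.34 on the log2 scale (SE 0.17, 95% interval −1.73 to −0.96, adjusted p = 0.0062 with edgeR's test, 1.6e-10 from DESeq2). The call was lost in 8 of 10 fits that left out 1 library, those without Fh1-/- day 10 replicate 1, 3 or 4 or without any 1 of the 5 day 5 replicates, with an adjusted p between 0.01 and 0.0256 from edgeR. The log2 fold change stayed between −1.44 and −1.21 in all 10 of these fits. Between genotypes at day 10 it was −1.02 (SE 0.21, 95% interval −1.51 to −0.53, adjusted p = 0.0391 from edgeR, 7.1e-04 from DESeq2), and without Fh1-/- day 10 replicates 1 and 3 it was as large, at −1.21. The genotype difference differed between the days by −0.88 (SE 0.24, adjusted p = 0.0711 from edgeR on all 20 libraries, 0.0214 from DESeq2). Over the 10 genes 0 passed that test of the difference with edgeR or DESeq2, against 0.0335% of all 14934 genes with edgeR and 1.8% with DESeq2. An unadjusted p under 0.05 was reached by 3, against 20.2% of all genes, with a positive difference for Cry2 (11.8% of all genes) and a negative one for Nr1d1 and Dbp (8.4%).

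Dbp shares 539 exon bases with Sphk2, a sphingosine kinase gene on the opposite strand, and whether reads were counted by strand is not stated in the sources used here. Sphk2 had a log2 fold change of −0.41 between the days in Fh1-/- kidneys (adjusted p = 0.0343 from edgeR) and of −0.28 between genotypes at day 10 (adjusted p = 0.163 from edgeR). Its part in the Dbp count was not tested.

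Arntl and Dbp, whose rhythms run in antiphase, were set against each other library by library. The difference of their log2 CPM values (Arntl minus Dbp, not corrected for length and so read only between libraries) was −3.004, −3.47, −3.13, −3.05 and −1.84 in Fh1-/- day 10 replicates 1 to 5. It was −4.24, −4.85, −4.79, −5.91 and −4.14 in Fh1+/+ day 10. At day 5 it lay between −6.63 and −5.31 in Fh1-/- and between −6.55 and −5.51 in Fh1+/+ kidneys. The 5 Fh1-/- day 10 libraries thus had the highest values of all 20, and at day 10 Fh1+/+ replicate 4, at −5.91, lay among the day 5 libraries.

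**Figure D3:**
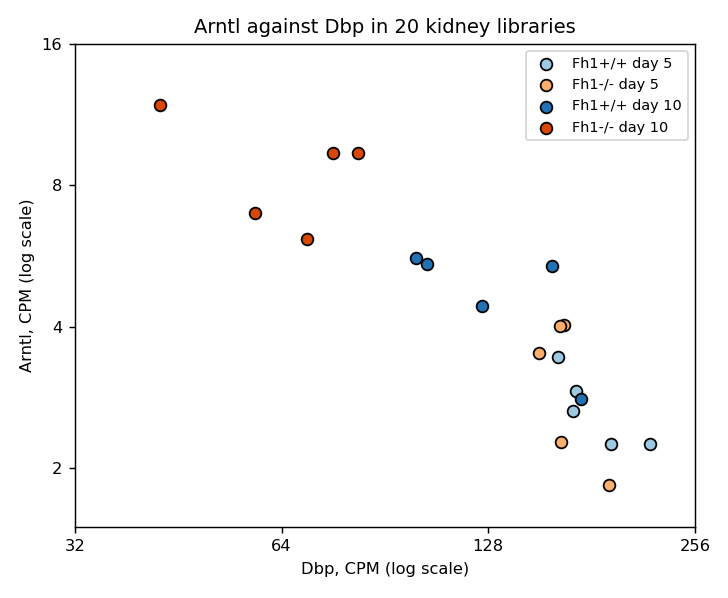
Arntl (vertical) against Dbp (horizontal) in CPM on log scales; each point is 1 of 20 libraries, coloured by group. The Fh1-/- day 10 libraries lie at the upper left (Dbp 42.6 to 82.8 CPM, Arntl 6.16 to 11.8 CPM), and 4 of the Fh1+/+ day 10 libraries lie between them and the day 5 libraries in Arntl.

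The order of abundance per length of exon also differed between groups. In Fh1+/+ kidneys at day 5 the order was Dbp (61.2 CPM per kilobase), Nr1d1 (32.2), Nr1d2 (18.5), Per1 (7.68), Cry2 (5.28), Per2 (4.71), Per3 (3.51), Clock (2.94), Cry1 (1.59) and Arntl (0.359). Neighbours from Per1 to Clock in this order overlapped between libraries, and the other neighbours did not. In Fh1-/- kidneys at day 10 Nr1d1 came first (27.8 ± 3.03 CPM per kilobase), then Dbp (22.0 ± 5.28), Per1 (17.6 ± 4.28) and Nr1d2 (12.2 ± 2.598; SD, n = 5 each), and each of these 4 overlapped with its neighbour among them.

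The genes also differed in how far libraries of 1 group lay apart. In Fh1+/+ kidneys the SD of log2 CPM within groups was 0.95 for Cry1 and 0.84 for Per1, above that of 96.6% and 95.3% of 14934 genes, whose median was 0.23. Per2 followed at 0.56 (86.5%). Nr1d2 was among the steadier genes at 0.12 (14.4%), with Clock at 0.18 (34.9%), Nr1d1 at 0.23 (50.4%) and Dbp at 0.28 (60.0%). In Fh1+/+ kidneys at day 10 the highest library exceeded the lowest 11.5-fold for Cry1, 6.30-fold for Per1 and 4.10-fold for Per2. Replicate 3 was the highest of its group for Per1, Per2, Per3, Cry1 and Cry2, and replicate 5 the lowest for all 5 of these genes.

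Per2, Cry1 and Cry2 varied together within groups. After each group's mean was subtracted, log2 CPM of Per2 and Cry1 had a Pearson r of 0.92 and a Spearman rho of 0.90 over the 20 libraries (permutation p = 1e-05 for both, the smallest that 100000 permutations can give, adjusted p = 4.5e-04 over 45 pairs). Without the 2 libraries farthest from the median of Per2, r was 0.85. Cry1 and Cry2 had r = 0.80 and rho = 0.78 (permutation p = 4.6e-04 and 3.4e-04, adjusted p = 0.0104 and 0.0051), and r was 0.65 without the 2 farthest libraries. Per2 and Cry2 had r = 0.79 and rho = 0.77 (permutation p = 8e-04 and 3.2e-04, adjusted p = 0.012 and 0.0051), and r was 0.66 without them. These were the 3 of 45 pairs with an adjusted p under 0.05.

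Per3 joined them when Fh1-/- day 10 replicates 1 and 3 were left out, a choice made after seeing the data. Over the remaining 18 libraries 6 pairs passed, and Per2 and Per3 had r = 0.93 and rho = 0.87 (permutation p = 7e-05 and 2.2e-04, adjusted p = 0.0011 and 0.0025), against r = 0.44 and rho = 0.55 over all 20 (adjusted p = 0.0844 and 0.0659). Over the 10 Fh1+/+ libraries alone r was 0.97 and rho 0.95 (permutation p = 2.3e-04 and 6.1e-04, adjusted p = 0.0074 and 0.0137). Arntl and Dbp had r = −0.54 and rho = −0.53 over all 20 libraries (permutation p = 0.0182 and 0.0229, adjusted p = 0.0867 and 0.129), and r = −0.72 and rho = −0.71 over the 18 (adjusted p = 0.0078 and 0.0128 by permutation), with r = −0.61 without the 2 farthest. Within Fh1+/+ kidneys they had r = −0.74 and rho = −0.77 (adjusted p = 0.136 and 0.109 by permutation).

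**Figure D4:**
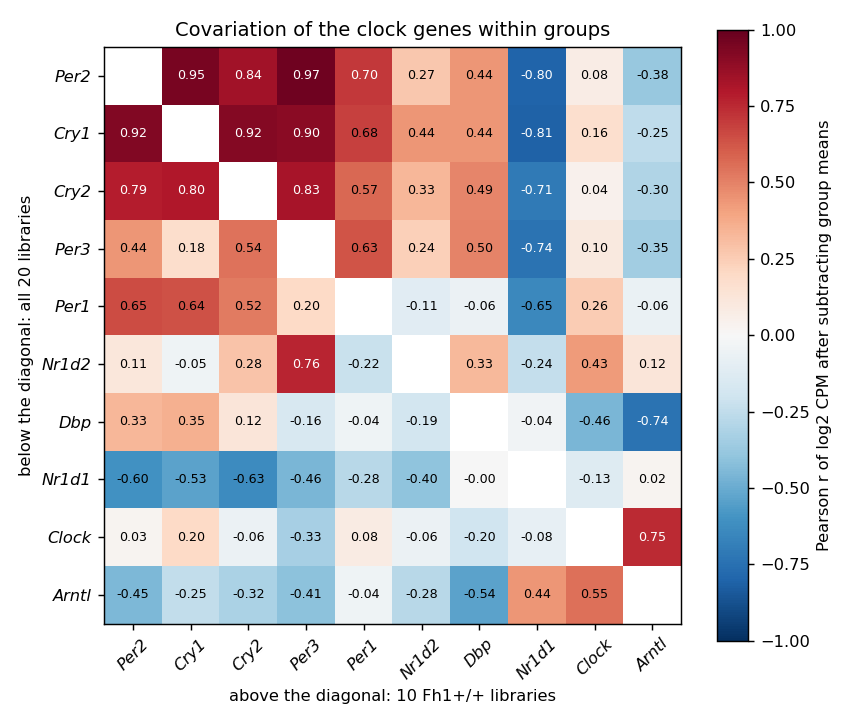
Pearson r (colour and printed value) between log2 CPM of pairs of the 10 genes after subtraction of group means, over all 20 libraries below the diagonal and over the 10 Fh1+/+ libraries above it. Per2, Cry1 and Cry2 share r of 0.79 or more in both sets, and Per3 has r of 0.83 or more with each of them in the Fh1+/+ libraries but 0.54 or less over all 20.

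Genes outside the 10 were ranked by the same measure over 13681 genes with a mean of 1 CPM or more, as a description. The measure holds within groups only, and the group means of a gene named here can differ in the other direction. Closest to Dbp were Enc1 (r = 0.78), Pask (0.77), Myc (0.77), Morn4 (0.76) and Qtrtd1 (0.74), and most opposed were Slc35f2 (−0.76), Lonp2 (−0.73), Prob1 (−0.72), Sult1b1 (−0.71) and Pex13 (−0.71). Closest to Arntl were Rsph3a (r = 0.81), Slc25a53 (0.74), Ugt2b38 (0.67), Thnsl1 (0.67) and Ube2h (0.67), and most opposed were Rnaset2a (−0.69), Nkrf (−0.67), Tagap (−0.67), Lamtor3 (−0.65) and Xrcc6 (−0.65). Ugt2b38 ran from 0.046 to 487 CPM among the Fh1-/- day 5 libraries. Npas2, which encodes a paralog of CLOCK that also pairs with BMAL1, ranked 41st of 13681 by r with Arntl (0.53), and Ciart, a repressor of the loop, stood at the other end (−0.52).

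Of 17 other clock regulators, 0 passed edgeR's test in any of the comparisons, and their median log2 fold change between genotypes at day 10 was 0.31, against −7.3e-04 over all genes. DESeq2 called 3 at day 10 (Bhlhe40 and Nfil3 higher, Fbxl21 lower), against 5.35% of all genes. With edgeR 6 had an unadjusted p under 0.05 and were higher at day 10, against 15.1% of all genes, and 3 were lower, against 11.9%. Nfil3, which encodes a repressor of the D-box sites that DBP activates, was at 51.7, 16.6, 58.3, 32.9 and 48.3 CPM in Fh1-/- and at 7.39, 9.78, 17.1, 4.35 and 6.40 CPM in Fh1+/+ day 10 replicates 1 to 5. The groups overlapped by 1 library each, and the log2 fold change was 2.20 (SE 0.41, adjusted p = 0.0343 from edgeR). Against Fh1-/- day 5, at 3.90 to 14.7 CPM, there was no overlap and it was 2.18 (adjusted p = 0.0182 from edgeR).

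Hlf and Tef, which encode the PAR bZIP factors related to DBP, had log2 fold changes of −0.65 (adjusted p = 0.201 from edgeR) and −0.41 (adjusted p = 0.299) between genotypes at day 10. Between the days in Fh1-/- kidneys, Hlf differed by −0.97 (adjusted p = 0.0521 from edgeR) with no overlap, and Ciart by −0.97 (adjusted p = 0.0382 from edgeR, called by DESeq2). Npas2 differed by 1.33 (adjusted p = 0.0411 from edgeR) and Csnk1e, a casein kinase gene whose product phosphorylates PER proteins, by 1.01 (adjusted p = 0.0343 from edgeR). The mean of Npas2 was also higher at day 10 in Fh1+/+ kidneys, at 4.09 CPM against 2.20 CPM at day 5, with overlapping libraries. At day 5 between genotypes 2 of 17 had an unadjusted p under 0.05, Bhlhe40 (0.34) and Hlf (0.25), both higher in Fh1-/- kidneys, against 4.78% of all genes.

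**Figure D5:**
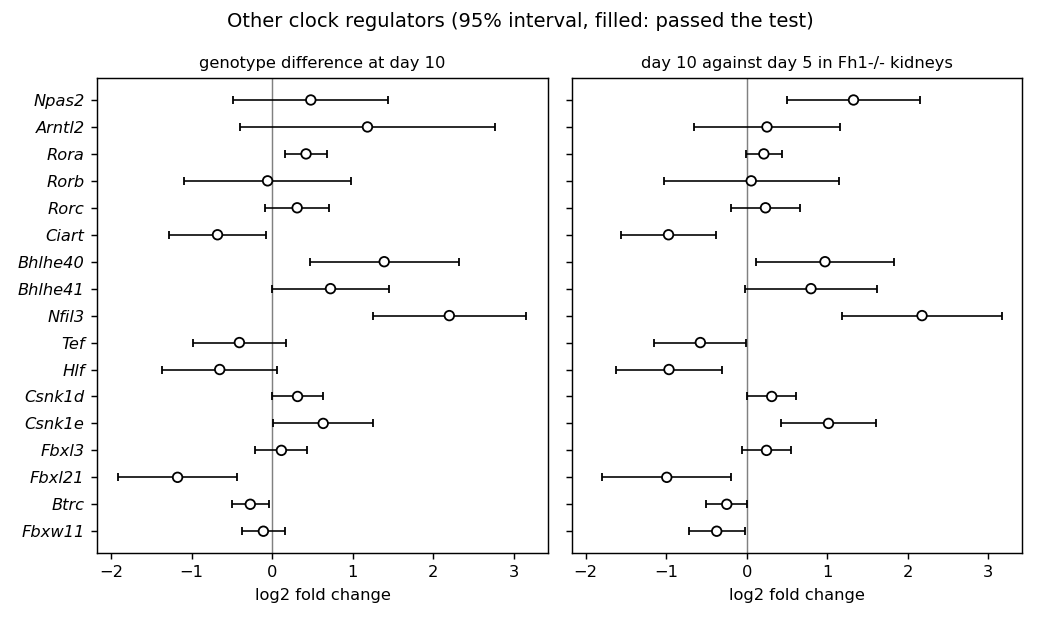
Log2 fold changes (horizontal axes) with 95% intervals from edgeR for 17 other clock regulators between genotypes at day 10 (left) and between the days in Fh1-/- kidneys (right); none is filled since none passed. Nfil3 has the largest value in both (2.20 and 2.18).

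Other measures moved with these differences, and their part in them was not tested. Glucocorticoid targets, read because the hormone resets peripheral clocks and acts on Per1, summed to between 1396 and 2241 CPM over 8 genes in Fh1-/- and between 581 and 1231 CPM in Fh1+/+ kidneys at day 10, without overlap. Errfi1 had the largest means, 868 CPM in Fh1-/- and 392 CPM in Fh1+/+ kidneys. Of the 8, 6 had a log2 fold change above 0 and 2 below. Tsc22d3 had means of 74.4 and 76.9 CPM and Cdkn1c of 15.1 and 21.8 CPM in Fh1-/- and Fh1+/+ kidneys. Fkbp5 was the 1 of 8 that passed, against 0.0557% of all genes (log2 fold change 2.41, SE 0.28, adjusted p = 0.0091 from edgeR), from 99.6 ± 39.7 to 532 ± 84.4 CPM (SD, n = 5 each). Proximal tubule markers (5 genes) summed to between 2359.85 and 8952 CPM in Fh1-/- and between 7864 and 10151 CPM in Fh1+/+ kidneys at day 10, and tubular injury markers (5 genes) to between 2714 and 133573 and between 831 and 2041 CPM. Of the proximal tubule genes 0 of 5 passed with edgeR or DESeq2, against 0.0557% and 5.35% of all genes. At an unadjusted p under 0.05 from edgeR there were 0, against 27% of all genes. Of the injury genes 4 of 5 reached that level and were higher, against 15.1%. Stromal markers (4 genes) had a median log2 fold change of −1.50 at day 10, with 3 of 4 lower at an unadjusted p under 0.05, against 11.9% of all genes. Their sums were between 39.4 and 222 CPM in Fh1-/- and between 168 and 397 CPM in Fh1+/+ kidneys. Endothelial markers (4 genes) had a median log2 fold change of −0.79, with 1 of 4 lower at an unadjusted p under 0.05, against 11.9% of all genes. Fh1-/- day 10 replicates 1 and 3 held both the lowest proximal tubule sums (2359.85 and 2610.2 CPM) and the highest injury sums (133573 and 126027 CPM), and their Dbp levels were the 2 highest of their group.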

How the data were processed

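Kidney RNA was sequenced as stranded polyA libraries. The authors deposited raw gene counts from 20 libraries. Per their methods and processing notes, adapters were trimmed with cutadapt, reads were aligned to GRCm38 with STAR 2.6.0c and counted over GENCODE genes with Rsubread, and DESeq2 was their test. The strand setting of that counting is not stated. Totals ran from 16654829 to 25001294 counts, and 0 symbols start with mt-. Counts of 40 pairs of replicates were compared by chi-square, which was at least 7.49 for each degree of freedom, so each library counted as 1 sample.

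Counts were filtered (filterByExpr) and TMM-normalized. Each comparison was fitted with the 10 libraries it concerns by edgeR 4.0.16's quasi-likelihood test in R 4.3.3, two-sided, with Benjamini-Hochberg adjustment over all genes. A call needed an adjusted p under 0.01 and a log2 fold change beyond 0.58. The difference between days used all 20. DESeq2 1.42.0, other filters, normalization, covariates and left-out libraries were alternatives. Log2 CPM used a prior count of 2, and correlations were tested with 1e+05 permutations within groups, two-sided. Intervals are 95%. Genes named by likeness were the 5 nearest at each end for Dbp and Arntl (mean of 1 CPM or more). Noct was matched as Ccrn4l. Members and lists were chosen with earlier results of these data known.

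In simulated counts for the genotype difference at day 10 (14228 genes), 66.2% of 4-fold and 10% of 2-fold changes were recovered with 1 false call. For day 10 against day 5 in Fh1-/- kidneys (14094 genes) it was 70.6% and 18.6% with 1 false call.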

Additional observations from a re-analysis of the deposited data

Results flagged for a closer look

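Of 40 groups of 5 libraries (10 genes in 4 groups), 4 held a library far from the others by Dixon's test at the 95% level, which chance gives in about 1 of 20 groups. Per1 was at 78.5 CPM in Fh1+/+ day 5 replicate 1, where the next library was at 39.5 CPM. Y-linked transcripts summed to 0.649 CPM in that library and to between 115 and 126 CPM in the others of its group. The highest Per1 library of each other group was also low in them. Fh1+/+ day 10 replicate 2, low in them too, had Per1 at 36.7 CPM, below replicate 1 at 73.2 CPM. The part of sex was not tested. Clock was at 65.0 CPM in Fh1-/- day 10 replicate 1, with the next at 51.5 CPM, and at 31.6 CPM in Fh1+/+ day 10 replicate 4, below the next at 43.0 CPM. Nr1d2 was at 101 CPM in Fh1+/+ day 10 replicate 2, with the next at 86.9 CPM.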

How the results depend on the processing

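Over 50 fold changes of the 10 genes, 981 of 1020 values under other settings kept their direction and their side of the threshold, 13 newly passed, 9 no longer passed (all Dbp between the days in Fh1-/- kidneys) and 17 changed sign, in 7 results that had not passed. Between genotypes at day 10 the number of genes called was 0, and became 1 at an adjusted p under 0.05 without a fold threshold, 2 with DESeq2 and 1 in a fit of all 20 libraries. Between the days in Fh1-/- kidneys it was 1, and became 4 at an adjusted p under 0.05, 3 with DESeq2, 2 with a covariate for Y-linked transcripts, 2 in a fit of all 20 libraries, 0 with the replicate number as a block (adjusted p of Dbp 0.0526) and 0 to 3 when single libraries were left out. It was 0 in the other 3 comparisons under every alternative run. Over all genes edgeR called 8 between genotypes at day 10 and DESeq2 836, with 406 at an adjusted p under 0.05, 838 in a fit of all 20 libraries and 0 with the block. Between the days in Fh1-/- kidneys these were 82, 1334, 1653, 1294 and 0. With single libraries left out, edgeR's numbers ran from 0 to 235 and from 0 to 774, both highest without Fh1-/- day 10 replicate 2. Same-numbered libraries correlated between −0.51 and 0.33 over all genes in 20 pairs, and 3 of 20 correlated best with their own number. Over the 10 clock genes alone these correlations ran from −0.41 to 0.84. The numbers were therefore not taken as pairs in the main fits. Whether same-numbered libraries shared a litter or a collection was not tested. With single libraries left out, the day 5 genotype difference ran from −0.094 to 0.42 for Per1, −0.18 to 0.27 for Cry1 and −0.13 to 0.17 for Nr1d1. Between the days in Fh1+/+ kidneys the ranges were −0.13 to 0.63 for Per1, −0.50 to 0.30 for Cry1, −0.15 to 0.033 for Cry2 and −0.00013 to 0.13 for Clock. With the Y-linked covariate Per1 was −0.044 and Nr1d1 −0.029 between genotypes at day 5, and Cry1 −0.44 between the days in Fh1+/+ kidneys, where the block gave −0.23. The cause was not tested. Depth limits Arntl and Cry1 most, with as few as 39 and 19 counts.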

Other observations

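Of 12 output genes of the clock, 0 passed edgeR's test between genotypes at day 10 (0.0557% of all genes did) and DESeq2 called 3 (5.35%). An unadjusted p under 0.05 from edgeR was found for 7 (27% of all genes), 6 of them higher in Fh1-/- kidneys (15.1%). Among the 8 glucocorticoid targets Fkbp5, a co-chaperone of the glucocorticoid receptor, was at 566, 388, 568, 605 and 532 CPM in Fh1-/- day 10 replicates 1 to 5 and at 126, 49.6, 152, 89.0 and 81.9 CPM in Fh1+/+ day 10. At day 5 it had a log2 fold change of 0.80 between genotypes (SE 0.15, adjusted p = 0.16 from edgeR, 4.6e-04 from DESeq2), without overlap of the libraries.

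All 9 immediate early genes had an unadjusted p under 0.05 from edgeR and were higher in Fh1-/- kidneys at day 10, where 15.1% of all genes were. Of the 9, 0 passed with edgeR (0.0557% of all genes) and DESeq2 called 8 (5.35%). Their sum was 1051 and 1124 CPM in Fh1-/- day 10 replicates 1 and 3, the libraries that stood apart on the first principal component, and 176, 226 and 275 CPM in the other 3, against 112 to 146 CPM in Fh1+/+ kidneys. Of 7 temperature responsive genes 3 had an unadjusted p under 0.05 (27% of all genes), 2 of them higher in Fh1-/- kidneys (15.1%), and their sums overlapped between the genotypes (261 to 390 and 253 to 419 CPM).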
